A study of Mus musculus with 12 samples.

Results

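The genes described are 8 Toll-like receptors (Tlr1, Tlr2, Tlr3, Tlr4, Tlr6, Tlr7, Tlr9 and Tlr13), the adaptor Myd88 and the co-receptor Cd14, chosen by symbol from the 55376 symbols of the deposited count table, in which all 10 were found. They were measured by RNA-Seq in oligodendrocytes sorted by FACS from the brain of C57BL/6 mice at postnatal day 40 on the lipid antigen O1, found on the surface of differentiating oligodendrocytes, and on absence of CD45, the pan-leukocyte antigen. The paper's gating scheme also excludes cells with CD11b. In reanalysis by cytometry the paper found no overt CD45-positive cells among the sorted cells, and it did not fully exclude minor contamination. There were 3 genotypes with 4 samples each and 2 brains in each sample. Wild-type (WT) mice were labelled by that name alone. Cnp-Cre Jab1fl/fl mice lose Jab1, a subunit of the COP9 signalosome, wherever the Cnp promoter drives Cre, which is in cells of the oligodendrocyte lineage and in Schwann cells. Double mutants (Cnp-Cre Jab1fl/fl p21CIP1-/-) carry the same conditional deletion and also lack p21, an inhibitor of the cell cycle, in every cell of the body. The comparison with WT asks which inflammatory genes change in sorted cells that lack Jab1, and the comparison of both mutants asks whether loss of p21 alters that change. Each sample is thus a pool of animals, and the spread between samples is that between pools.

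Toll-like receptors are membrane proteins of innate immunity that bind molecules of microbes or of damaged cells. Tlr1 and Tlr6 each pair with Tlr2 at the cell surface and bind bacterial lipopeptides, and Tlr4 responds to lipopolysaccharide, which Cd14 hands to it. Tlr3, Tlr7, Tlr9 and Tlr13 sit in endosomes and bind double-stranded RNA, single-stranded RNA, unmethylated CpG DNA and bacterial ribosomal RNA. Myd88 carries the signal of all of these receptors except Tlr3, which uses the adaptor Ticam1 (TRIF), and the signal ends in NF-kB and interferon regulatory factors. In the brain most of these receptors are known from microglia, the resident macrophages, while Tlr3 is also known from astrocytes and other cells of neural origin.

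Total counts were 61485556 to 153495112 per sample. Levels are given below as CPM, counts scaled to library size with TMM factors. The sort was depleted of leukocytes, but the 20 microglia marker genes examined summed to 157 to 358 CPM in WT, 1265 to 2874 CPM in Cnp-Cre Jab1fl/fl and 468 to 19530 CPM in double mutants. Of these markers 18 were called higher in Cnp-Cre Jab1fl/fl than in WT, and none was at 0 throughout a genotype. Ptprc, which encodes CD45 itself, was at 0.114, 0, 0.189 and 1.57 CPM in WT and at 56.8, 31.7, 100.2 and 54.5 CPM in Cnp-Cre Jab1fl/fl. Markers of endothelial cells (4 of 6 called higher), mural cells (3 of 5 called higher) and mature oligodendrocytes (6 of 9 called lower) also differed between these genotypes. Among border macrophage markers 1 of 4 tested was called higher, as was 1 of 4 markers of oligodendrocyte progenitors. None was called among the tested markers of astrocytes, neurons, or monocytes and neutrophils. Of all genes tested, 5.19% were called higher and 2.46% lower in this comparison. Double-mutant replicate 3 stood apart, with 7 border macrophage markers that summed to 56.5 CPM in it and to at most 12.8 CPM elsewhere. It was the highest of all 12 samples for 18 of the 20 microglia markers and, of 7 markers of monocytes and neutrophils, the highest by far for S100a8 (49.9 CPM), S100a9 (32.7 CPM), Retnlg (36.6 CPM) and Plac8 (8.08 CPM). The others did not single it out, with Ly6g at 1 count and Ccr2 at 9 counts in it and Ly6c2 at 8.79 CPM against 14.6 CPM in double-mutant replicate 5. Values that turn on this sample are therefore given with and without it for levels and for the main edgeR fit. DESeq2, limma-voom and the edgeR fits with other settings kept this sample wherever double mutants entered. The samples are bulk RNA, in which fewer cells of a type and less RNA per cell cannot be told apart.

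Tlr3, the double-stranded RNA receptor, was the most abundant receptor in the WT samples, and its level did not pass the test in any comparison. Its position is chromosome 8, 45395665 to 45411080, reverse strand (GRCm38, as for all genes here). It was at 49.3, 72.6, 21 and 38.5 CPM in the WT samples, at 59.6, 28.5, 35.5 and 25.1 CPM in Cnp-Cre Jab1fl/fl and at 31.5, 43.3, 43.7 and 36.9 CPM in double mutants. The 3 genotypes overlapped, and the double mutants were the closest to each other. The log2 fold change was -0.17 (SE 0.41) for Cnp-Cre Jab1fl/fl against WT, with an adjusted p of 0.859 in edgeR's quasi-likelihood test. It was -0.17 (SE 0.37, adjusted p = 0.896, edgeR) for double mutants against WT. The 7 astrocyte markers examined, of which 0 were called in edgeR between any genotypes, summed to 7893, 10680, 4663 and 7155 CPM in WT, to 6501, 5619, 4704 and 2219 CPM in Cnp-Cre Jab1fl/fl and to 2916, 7800, 8346 and 5720 CPM in double mutants. Tlr3 ranked the samples as this sum did within WT and within double mutants, and in Cnp-Cre Jab1fl/fl replicate 1 was the highest and replicate 4 the lowest for both. The part of astrocytes in the level of Tlr3 was not tested. Tlr3 overlaps Gm45542 on the other strand, and reads of the overlap cannot be assigned to either gene if strand was not used.

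Compared per kilobase of exon, Tlr3 came first in WT at 10.1 ± 4.81 CPM per kilobase (SD, n = 4), followed by Myd88 at 6.15 ± 1.59, Tlr2 at 1.70 ± 1.55 and Cd14 at 1.58 ± 1.09. The mean of Myd88 lay within 1 SD of that of Tlr3 but not the reverse, and Tlr2 and Cd14 lay within each other's SD. Further down were Tlr6 at 0.417 ± 0.334, Tlr4 at 0.223 ± 0.193 and Tlr7 at 0.168 ± 0.193 CPM per kilobase, which could not be separated from each other by their spread either. Tlr1, Tlr9 and Tlr13 were at or near 0. In Cnp-Cre Jab1fl/fl the order was led by Cd14 at 14.1 ± 4.88 CPM per kilobase (SD, n = 4), then Myd88 at 10.6 ± 2.30 and Tlr3 at 8.28 ± 3.46, where Myd88 and Tlr3 lay within each other's SD and Myd88 within that of Cd14 but not the reverse, followed by Tlr2 at 4.44 ± 3.92, Tlr7 at 2.48 ± 0.997 and Tlr1 at 1.83 ± 0.929. In double mutants the spread of Cd14 (44.6 ± 77.9 CPM per kilobase) and Tlr2 (10.4 ± 16.6) exceeded their means, while Myd88 was at 11.4 ± 6.13 and Tlr3 at 8.65 ± 1.29. Without replicate 3 (n = 3) Cd14 was at 5.69 ± 6.65, Tlr2 at 2.13 ± 0.809, Myd88 at 8.57 ± 2.91 and Tlr3 at 8.30 ± 1.31 CPM per kilobase. Tlr3 made up 78.0%, 78.8%, 76.6% and 88.0% of the summed level of the 8 receptors in the WT samples, and 52.8%, 57.8%, 44.5% and 26.0% in Cnp-Cre Jab1fl/fl. Its share was thus lower in each Cnp-Cre Jab1fl/fl sample than in any WT sample, while its own level overlapped between these genotypes. In double mutants the share was 64.7%, 71.7% and 78.6% in replicates 1, 2 and 5 and 15.4% in replicate 3.

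**Figure D1:**
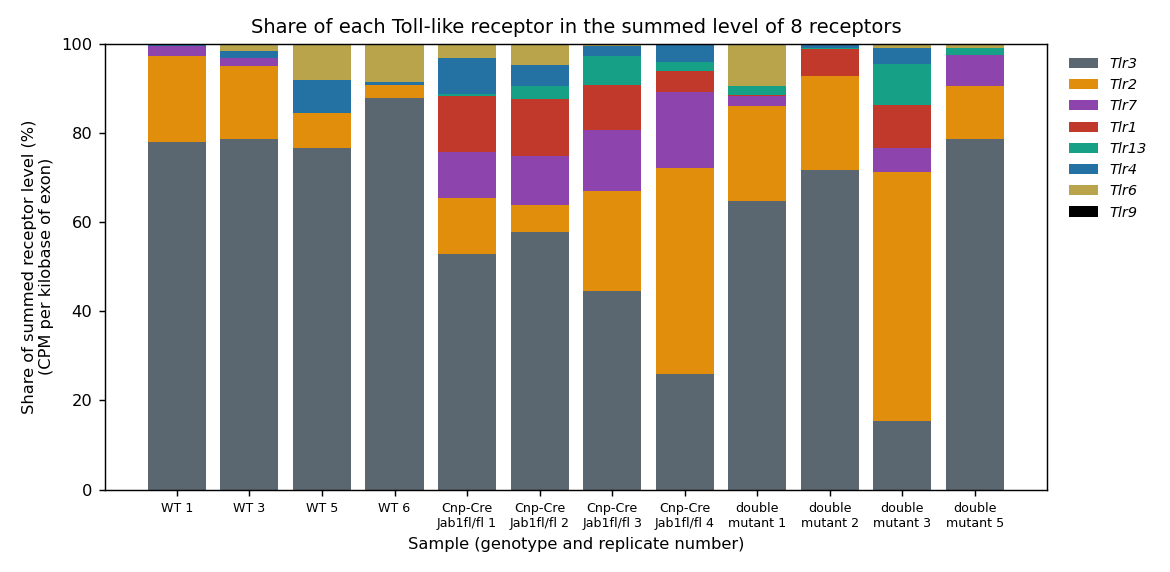
Bars show the share of each receptor in the summed level of the 8 Toll-like receptors (percent, from CPM per kilobase of exon) in each of the 12 samples. Tlr3 (lowest segment) made up 76.6% to 88.0% in WT and 26.0% to 57.8% in Cnp-Cre Jab1fl/fl, where Tlr1, Tlr7 and Tlr13 segments appear.

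Of the 10 genes, 9 reached 1 CPM in 4 or more of the 12 samples and were tested. In Cnp-Cre Jab1fl/fl 3 of them were upregulated relative to WT at an adjusted p below 0.05, namely Tlr1, Tlr13 and Cd14, and 0 were lower. Among all 17716 genes tested 5.19% were called higher and 2.46% lower in this comparison. At an unadjusted p below 0.05, 6 of the 9 were higher and 0 lower, where 13.2% of all genes were higher and 9.3% lower. The 4 mutant samples lay above all 4 WT samples for 5 members (Tlr1, Tlr7, Tlr13, Myd88 and Cd14) and for 8.73% of all genes tested, and below them for 0 members and 9.01% of all genes. The median log2 fold change of the 9 members was 2.20, against 0.02 over all genes tested. Tlr1 and Tlr13 reached the filter only through mutant samples, and Tlr4 and Tlr7 mainly through them. The counts and the median therefore describe the list and support no test.

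**Figure D2:**
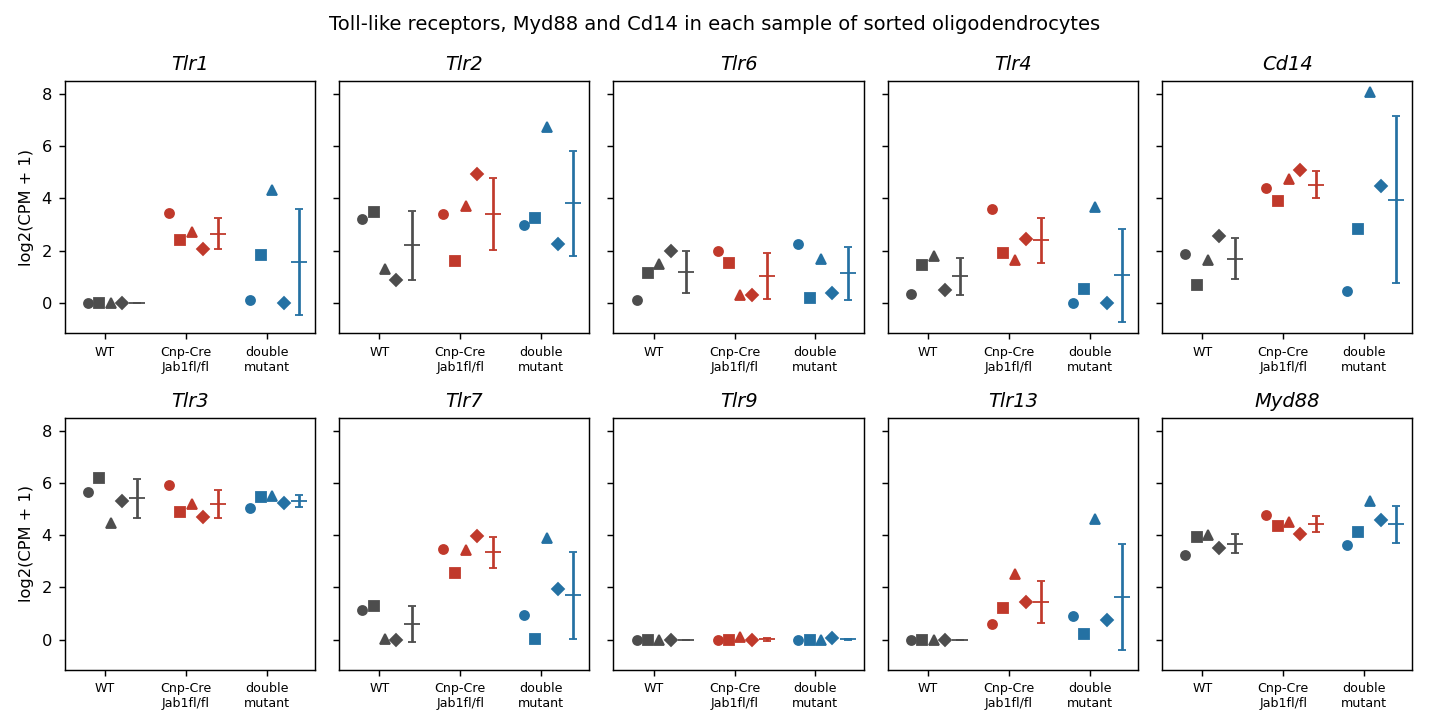
Each point is 1 sample on the log2(CPM + 1) scale, with bars for the mean ± SD (n = 4) of each genotype, and the 4 symbols stand for the samples of a genotype in the order of their replicate numbers. The triangle of the double mutants is replicate 3, the highest of the 4 for 8 of the 10 genes.

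Tlr1, which pairs with Tlr2 and binds triacylated lipopeptides, went from almost no reads in WT to several CPM in every Cnp-Cre Jab1fl/fl sample. Its position is chromosome 5, 64924679 to 64933563, reverse strand. The WT libraries had 0, 1, 0 and 1 counts and the mutant libraries 797, 524, 400 and 249 counts, or 9.82, 4.36, 5.50 and 3.17 CPM. The groups were far from overlapping. The summed counts were 1226 times higher relative to library size, with a 95% exact interval of 339 to 10130 that covers counting error only. In edgeR the adjusted p was 0.00214. The fitted log2 fold change of 10.06 depends on the small count added to WT and is not a bound. In double mutants Tlr1 had 7, 310, 2021 and 0 counts, or 0.0755, 2.53, 19.1 and 0 CPM, so replicates 1 and 5 resembled WT and replicates 2 and 3 did not. Tlr1 shares 15.4% of its 50-base words with its neighbour Tlr6, and reads that fall there may be assigned to either gene. Tlr6 had 8, 181, 172 and 272 counts in WT and 243, 225, 17 and 18 counts in Cnp-Cre Jab1fl/fl. The effect of the shared stretches on either gene was not tested.

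Tlr13, the endosomal receptor for bacterial 23S ribosomal RNA, had no read in any WT library. Its position is chromosome X, 106143204 to 106160493, forward strand. The Cnp-Cre Jab1fl/fl libraries had 42, 158, 348 and 137 counts, or 0.517, 1.32, 4.78 and 1.74 CPM. With the floor of 3 counts in each WT library, the mean level was at least 73.6-fold higher in these mutants (adjusted p = 0.0117, edgeR). Tlr13 passed the filter through 3 of these samples and double-mutant replicate 3. When the filter used only the 8 samples compared, Tlr13 was not tested. Without any filter its adjusted p was 0.0222 in edgeR, and with the main filter it was 0.0516 in limma-voom. In double mutants Tlr13 had 79, 22, 2506 and 68 counts, or 0.853, 0.179, 23.6 and 0.696 CPM, all above WT.

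The 300-base windows around the RefSeq starts of these genes are shown for Tlr1 and Tlr13, the receptors called higher in Cnp-Cre Jab1fl/fl, and for Tlr3, whose level overlapped between the genotypes. They run from 250 bases before the start to 50 bases after it on GRCm38.p6, on the strand of the gene, and capitals mark matches to the motifs named next.
Tlr1, chr5:64933509-64933808, reverse strand: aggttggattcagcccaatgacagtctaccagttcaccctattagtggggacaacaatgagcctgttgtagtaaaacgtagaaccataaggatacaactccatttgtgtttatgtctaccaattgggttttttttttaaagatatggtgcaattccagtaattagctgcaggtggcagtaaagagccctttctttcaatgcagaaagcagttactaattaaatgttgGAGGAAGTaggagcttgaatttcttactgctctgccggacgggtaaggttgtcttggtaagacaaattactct
Tlr13, chrX:106143025-106143324, forward strand: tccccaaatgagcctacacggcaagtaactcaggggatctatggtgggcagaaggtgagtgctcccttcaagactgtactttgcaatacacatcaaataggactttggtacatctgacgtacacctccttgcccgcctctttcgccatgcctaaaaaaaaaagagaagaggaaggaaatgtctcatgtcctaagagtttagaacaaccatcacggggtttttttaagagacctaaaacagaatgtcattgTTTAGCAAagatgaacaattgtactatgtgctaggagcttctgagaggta
Tlr3, chr8:45410331-45410630, reverse strand: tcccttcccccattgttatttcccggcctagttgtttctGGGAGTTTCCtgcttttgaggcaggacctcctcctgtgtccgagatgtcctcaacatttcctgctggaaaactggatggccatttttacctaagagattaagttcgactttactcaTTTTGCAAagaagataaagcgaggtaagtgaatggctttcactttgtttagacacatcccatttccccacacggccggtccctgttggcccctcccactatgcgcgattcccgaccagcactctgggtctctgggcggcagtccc
The motifs searched on both strands were GAGGAAGT for PU.1, GAAANNGAA for interferon regulatory factors, TGANTCA for AP-1, TTGCNNAA for C/EBP, and the NF-kB consensus. The table of windows held 7 of the 9 members looked for, and Tlr4 and Tlr7 were not among them. The Tlr1 window holds a PU.1 match 23 bases before the start, a motif found in 3.2% of all 32851 windows. The Tlr13 window has a C/EBP match at base 1 after the start, a motif that 10.8% of all windows hold. Tlr3 has a C/EBP match at 95 bases and an NF-kB match at 211 bases before its start, the latter in 4.51% of all windows. Tlr2 holds 3 NF-kB matches, 2 of which overlap, Myd88 an interferon regulatory factor match 40 bases before its start (8.56% of all windows) and Tlr9 an AP-1 match 58 bases before it (7.81% of all windows). Tlr6 holds interferon regulatory factor matches 115 and 109 bases before its start and a C/EBP match at 89 bases, and Tlr9 also a PU.1 match at base 11 after its start. Tlr1 and Tlr6 have 2 windows each in the table, and the other window of Tlr1 had no match. These matches are letters in a window and say nothing about binding in these cells.

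Cd14, the co-receptor that passes lipopolysaccharide to Tlr4, was upregulated in Cnp-Cre Jab1fl/fl from a level that was low but above 0 in every WT sample. Its position is chromosome 18, 36725067 to 36726798, reverse strand. It was at 2.64, 0.634, 2.17 and 4.94 CPM in WT and at 20.1, 13.9, 25.8 and 32.6 CPM in Cnp-Cre Jab1fl/fl. The lowest mutant sample was above the highest WT sample, and the mean was 8.90-fold higher. The log2 fold change was 3.28 (SE 0.64, adjusted p = 0.0119, edgeR) and with all 12 samples in a single fit the adjusted p was 0.156 (edgeR). Double mutants had 0.367, 6.17, 264 and 21.5 CPM, from below WT to far above Cnp-Cre Jab1fl/fl.

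Tlr7, the receptor for single-stranded RNA, and Myd88 were also higher in each Cnp-Cre Jab1fl/fl sample than in any WT sample, yet neither passed the adjusted threshold. Tlr7, on chromosome X from 167304929 to 167330558 on the reverse strand, was at 1.18, 1.46, 0.021 and 0 CPM in WT and at 10.2, 4.81, 9.79 and 14.5 CPM in Cnp-Cre Jab1fl/fl. Its log2 fold change was 4.00 (SE 1.41, adjusted p = 0.117, edgeR), and the same comparison gave an adjusted p of 0.00522 in DESeq2 and 0.0225 in limma-voom. WT replicates 5 and 6 had 2 and 0 counts of Tlr7, and the other WT libraries 125 and 217. Myd88, on chromosome 9 from 119335934 to 119341411 on the reverse strand, was at 8.45, 14.4, 14.9 and 10.5 CPM in WT and at 26.4, 19.4, 21.5 and 15.5 CPM in Cnp-Cre Jab1fl/fl. The gap between the highest WT sample and the lowest mutant sample was small, and the log2 fold change was 0.90 (SE 0.38, adjusted p = 0.182, edgeR). Myd88 overlaps Slc22a14 on the same strand and Acaa1a on the other, so reads in those stretches are uncertain.

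Tlr2, Tlr4 and Tlr6 varied within genotypes as much as between them. Tlr2, which both Tlr1 and Tlr6 need as a partner, lies on chromosome 3 from 83836272 to 83841767 and was at 8.21, 10.1, 1.45 and 0.822 CPM in WT and at 9.58, 2.01, 12 and 29.9 CPM in Cnp-Cre Jab1fl/fl. Its log2 fold change was 1.52 (SE 0.92, adjusted p = 0.374, edgeR), and the groups overlapped. Tlr4, the lipopolysaccharide receptor, lies on chromosome 4 from 66827584 to 66930284 and was at 0.284, 1.73, 2.46 and 0.400 CPM in WT and at 11, 2.81, 2.10 and 4.51 CPM in Cnp-Cre Jab1fl/fl (log2 fold change 2.20, SE 0.97, adjusted p = 0.206, edgeR). One mutant sample lay inside the WT range. Tlr6, on chromosome 5 from 64952031 to 64960097, was at 0.0756, 1.22, 1.81 and 3.02 CPM in WT and at 2.99, 1.87, 0.234 and 0.229 CPM in Cnp-Cre Jab1fl/fl, with a log2 fold change of -0.11 (SE 1.24, adjusted p = 0.971, edgeR). The partners of Tlr2 thus differed, Tlr1 being almost unread in WT while Tlr6 was read there in each sample, although this difference between both genes was not itself tested. Tlr9, the CpG DNA receptor on chromosome 9 from 106222598 to 106226883, had 6 counts in Cnp-Cre Jab1fl/fl replicate 3, 4 in double-mutant replicate 5 and 0 elsewhere. A count of 0 allows up to 0.0284 CPM on average in the WT libraries, so Tlr9 was not detectable at this depth in WT.

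No member passed the adjusted threshold in double mutants against WT. The edgeR test called 0 of 9 members, with 0.175% of all genes called higher and 0.0169% lower. DESeq2 called 2 (Tlr1 and Cd14) and gave no adjusted p for Tlr2, Tlr4 and Tlr13. Over all 17716 genes DESeq2 called 663 higher and 199 lower. The fitted log2 fold change of Tlr1, which is no bound, was 9.99 (adjusted p = 0.15, edgeR) and without replicate 3 it was 7.26 (adjusted p = 0.367, edgeR). At an unadjusted p below 0.05, 4 of the 9 were higher and 0 lower, against 7.82% higher and 4.57% lower of all genes. The log2 fold change of Cd14 was 4.91 (SE 1.56, adjusted p = 0.228, edgeR) and that of Tlr2, at 7.0, 8.54, 106.3 and 3.76 CPM in double mutants, was 2.71 (SE 1.17, adjusted p = 0.373, edgeR). Both values rest on replicate 3. Without it they were 1.90 for Cd14 (SE 1.09, adjusted p = 0.625, edgeR) and 0.38 for Tlr2 (SE 0.87, adjusted p = 0.918, edgeR). Tlr4, at 0.0108, 0.457, 11.9 and 0 CPM in double mutants, turned from 1.46 to -2.94 without that sample. The change of Tlr7 was 2.83 (SE 1.88) with it and 1.02 (SE 1.90) without it, and that of Myd88 0.96 (SE 0.46) and 0.54 (SE 0.42). Tlr6, at 3.80, 0.131, 2.23 and 0.318 CPM in double mutants, was at 0.13 and -0.05, and Tlr3 at -0.17 and -0.23. Without replicate 3, 0 members were called, 2 were higher at an unadjusted p below 0.05, and the median log2 fold change of the 9 fell from 2.71 to 0.54. Of all 17716 genes, that edgeR fit called 7 higher and 0 lower. At an unadjusted p below 0.05, 1079 of them were higher and 603 lower. Tlr13 was the 1 member with all double-mutant samples above all WT samples, which held for 4.01% of all genes (lower for 4.13%). Replicate 3 held 2506 of the 2675 Tlr13 counts of double mutants. The mean exceeded WT by at least 224 times with that sample (edgeR, adjusted p = 0.121) and by at least 20.3 times without it (edgeR, adjusted p = 0.268).

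Between double mutants and Cnp-Cre Jab1fl/fl no member passed the test. In edgeR 0 of the 9 passed the adjusted threshold and 0 had an unadjusted p below 0.05. DESeq2 called 0 as well, but it gave no adjusted p for Tlr1, Tlr13 and Cd14, which it therefore could not call. Over all 17716 genes DESeq2 called 20 higher and 67 lower. Over all genes, edgeR called 0% higher and 0% lower at the adjusted threshold and 1.75% higher and 3.25% lower at the unadjusted one. Groups did not overlap for 1.35% of all genes (higher) and 1.91% (lower), and for 0 members. Of the 9 fitted changes 6 were above 0 and 3 below it with all samples, and 1 was above 0 and 8 below it without replicate 3, when the median moved from 0.07 to -1.34 on the log2 scale. Without it 0 members were called and 2, Tlr4 and Tlr7, were lower at an unadjusted p below 0.05. Of all 17716 genes, 0 were called in that edgeR fit, and 327 were higher and 599 lower at an unadjusted p below 0.05. Cd14 was 1.64 (SE 1.30) with replicate 3 and -1.34 (SE 0.97) without it. Tlr7, at 0.928, 0.0163, 13.8 and 2.85 CPM in double mutants, was -1.18 (SE 1.26) with it and -2.98 (SE 1.30) without it. Tlr4 moved from -0.74 (SE 1.77) to -5.11 (SE 1.87), Tlr1 from -0.10 (SE 1.60) to -2.81 (SE 1.71), Tlr2 from 1.19 (SE 1.08) to -1.13 (SE 0.83) and Tlr13 from 1.57 (SE 1.42) to -1.89 (SE 1.34). Tlr3 moved little, from 0.01 (SE 0.35) to -0.04 (SE 0.39), and so did Tlr6, from 0.25 (SE 1.38) to 0.09 (SE 1.56). Myd88 was at 11.3, 16.5, 39.0 and 22.7 CPM in double mutants, where replicate 1 lay inside the WT range, replicates 2 and 5 inside that of Cnp-Cre Jab1fl/fl and replicate 3 above both, and its change against Cnp-Cre Jab1fl/fl was 0.07 (SE 0.45), or -0.34 (SE 0.44) without replicate 3. The standard errors of more than 1 for Tlr1, Tlr2, Tlr4, Tlr6, Tlr7, Tlr13 and Cd14 leave room for changes of several-fold in either direction. Both mutant genotypes were compared with the same WT samples, and all 3 comparisons share samples in pairs.

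**Figure D3:**
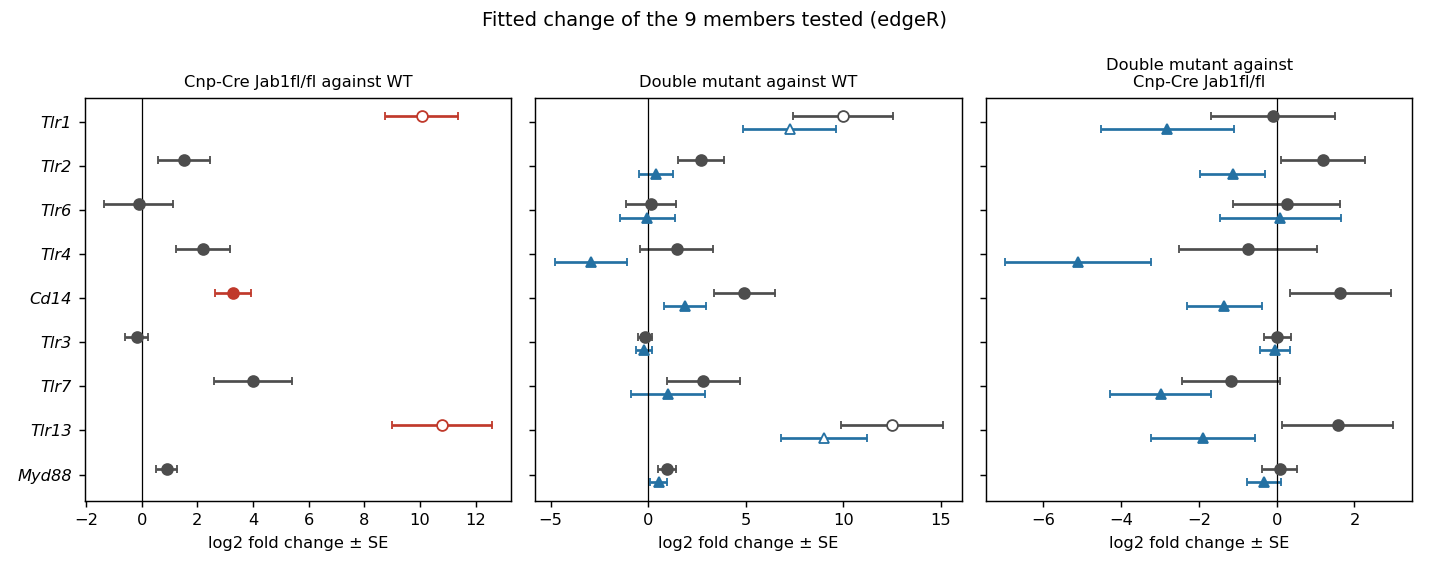
Points give log2 fold changes ± SE from edgeR for the 9 members tested in the 3 comparisons, in red where the adjusted p was below 0.05, and triangles give the fit without double-mutant replicate 3. Open symbols mark Tlr1 and Tlr13 against WT, where WT had 2 and 0 counts in all and the fitted value is not a bound. Each horizontal axis has its own range.

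Set against the microglia markers of the same sample, the members fell into different patterns. The level of Cd14 per 1000 CPM of the summed 20 markers was 10.1 ± 6.34 in WT and 10.6 ± 2.52 in Cnp-Cre Jab1fl/fl (SD, n = 4 each), and Tlr7 was at 3.71 ± 4.53 and 4.34 ± 0.792. For both genes the genotypes overlapped. Tlr1 was at 0.0208 ± 0.0240 in WT and 2.68 ± 1.09 in Cnp-Cre Jab1fl/fl and Tlr13 at 0 and 1.05 ± 0.947. In both the mutant samples were above all WT samples. With at most 1 count of Tlr1 and none of Tlr13 in a WT library, the WT ratio is near 0 whatever sum divides it. That separation repeats the one in level and adds nothing to it. Tlr3 had lower ratios in Cnp-Cre Jab1fl/fl, at 222 ± 174 in WT and 17.5 ± 6.01 in these mutants. Myd88 did too, at 52.6 ± 26.0 and 10.2 ± 4.04, and neither gene overlapped between the genotypes. The ratios depend on the markers summed. Sall1, which was not called between these genotypes, made up 8.10% to 25.6% of the sum in WT and 0.765% to 3.12% in Cnp-Cre Jab1fl/fl, and without it Cd14 was at 11.4 ± 6.71 and 10.8 ± 2.64. These ratios are descriptions with no test, and the part of microglia in the changes of the members was not tested. In double mutants Cd14 was at 0.784, 5.88, 13.5 and 9.76 per 1000 CPM of markers, so replicate 1 lay below all WT samples and the others, replicate 3 with its level of 264 CPM included, inside the WT range.

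**Figure D4:**
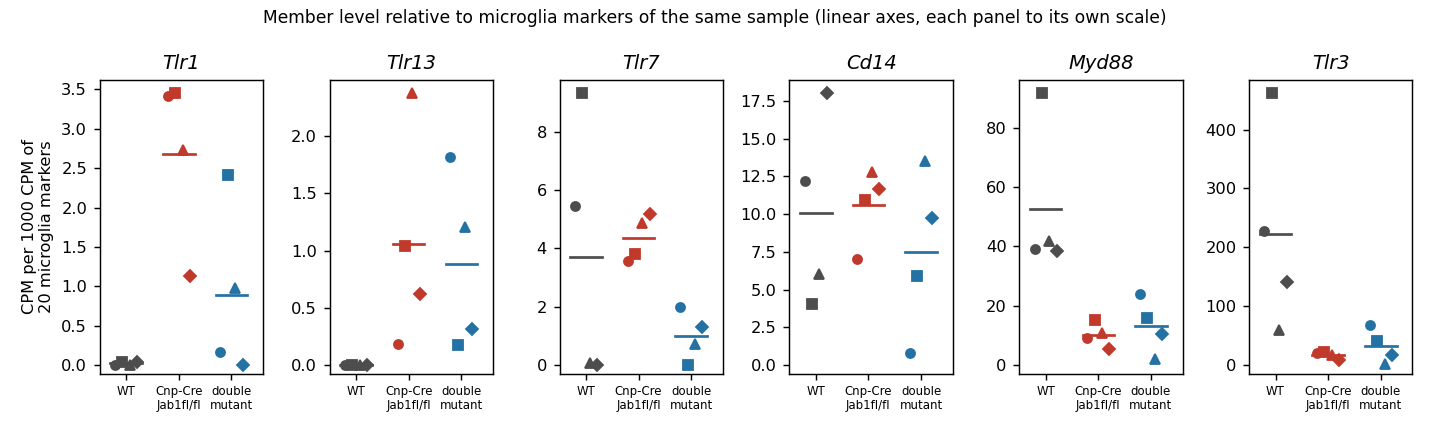
Points show each sample's level of 6 members per 1000 CPM of the summed 20 microglia markers, on linear axes with a scale for each panel, and lines show genotype means (n = 4). Tlr1 and Tlr13 lay near 0 in WT, where they had almost no reads, and above it in Cnp-Cre Jab1fl/fl. Cd14 and Tlr7 overlapped, and Myd88 and Tlr3 were highest in WT.

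For each member tested, the 2 genes outside the list with the most similar profile over the 12 samples were sought by the SD of the difference of centred log2(CPM + 1) values. Cd14 was followed most closely by Spi1 (SD 0.42) and Coro1a (SD 0.56), where the SD of Cd14 itself was 2.15. Tlr13 was most like Gm15503 (SD 0.33) and Pilra (SD 0.43), against its own SD of 1.37. Tlr1 was most like Plxna4os1 (SD 0.50) and Ifi209 (SD 0.51), Tlr7 like Nes (SD 0.53) and Fermt3 (SD 0.53), Tlr2 like Gpr84 (SD 0.81) and Tm6sf1 (SD 0.83), and Tlr4 like Dmrtc1a (SD 0.67) and Batf (SD 0.70). Tlr3 was nearest to Klhl32 (SD 0.24) and Krt222 (SD 0.25), Myd88 to Actr2 (SD 0.28) and Sdcbp (SD 0.28), and Tlr6 to Ston1 (SD 0.46) and 1700028J19Rik (SD 0.51). Their own SDs were small, at 0.50 for Tlr3, 0.58 for Myd88 and 0.81 for Tlr6. Own SDs were 1.58 for Tlr1, 1.54 for Tlr7, 1.61 for Tlr2 and 1.28 for Tlr4. A small SD of the difference thus says less for a member that itself varies little. None of the most similar genes was shared by 2 members. Without double-mutant replicate 3 the SDs of these pairs ran from 0.23 to 0.85. The points share libraries, and the likeness is a description.

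Of 43 other genes of the Toll pathway, 41 were tested, and edgeR called 5 higher and 0 lower in Cnp-Cre Jab1fl/fl than in WT, beside 5.19% and 2.46% of all genes. DESeq2 called 7, these 5 with Lbp higher (adjusted p = 0.0327) and Chuk lower (adjusted p = 0.0386), beside 1687 higher and 1002 lower of all 17716 genes. Limma-voom called 7, these 5 with Cd180 (adjusted p = 0.0325) and Unc93b1 (adjusted p = 0.0299) higher, beside 1307 higher and 614 lower of all genes. The median log2 fold change of the 41 genes was 0.24 in edgeR. Ly86 and Irf7 were called in each of the 8 fits that left out a sample, while Slc15a3 was lost in 6 of them (adjusted p up to 0.085, edgeR), all but those without WT replicate 3 or Cnp-Cre Jab1fl/fl replicate 2. Sigirr was lost in 5 (adjusted p up to 0.078, edgeR), without WT replicate 1, 3 or 5 or Cnp-Cre Jab1fl/fl replicate 1 or 4, and Irf5 in 2 (adjusted p up to 0.063, edgeR), without WT replicate 3 or Cnp-Cre Jab1fl/fl replicate 3. Among ligand-handling proteins and co-receptors 1 of 5 was called, Ly86 (MD-1, the partner of the Toll-like protein Cd180), at 2.47 ± 1.84 CPM in WT and 61.6 ± 28.5 CPM in Cnp-Cre Jab1fl/fl (SD, n = 4; log2 fold change 4.77, adjusted p = 0.00331, edgeR). Cd180 (4.61, adjusted p = 0.139, edgeR), Lbp (2.33, adjusted p = 0.179, edgeR), which carries lipopolysaccharide in serum, and Ly96 (1.08, adjusted p = 0.412, edgeR), the MD-2 subunit of the Tlr4 receptor, were not called in edgeR. Among chaperones and trafficking proteins 1 of 5 was called, the endolysosomal transporter Slc15a3, at 0.175 ± 0.342 CPM in WT and 16.6 ± 9.52 CPM in Cnp-Cre Jab1fl/fl (SD, n = 4; adjusted p = 0.0323, edgeR). Slc15a3 stayed at or below 0.688 CPM in WT and so reached the filter only through mutant samples. Its call and the pathway counts describe the list and support no test. Unc93b1, which brings the endosomal receptors to their compartment, was at 0.99 (adjusted p = 0.0951, edgeR), the chaperone Hsp90b1 at 0.68 (adjusted p = 0.175, edgeR) and Slc15a4 at -1.18 (adjusted p = 0.221, edgeR).

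Of the transcription factors, Irf7 and Irf5 were called, 2 of 5. Irf7 was at 9.87 ± 4.26 CPM in WT and 97.8 ± 36.7 CPM in Cnp-Cre Jab1fl/fl (SD, n = 4), a log2 fold change of 3.44 (adjusted p = 0.00213, edgeR), and Irf5 was at 2.24 ± 1.42 and 17.8 ± 6.21 CPM (3.12, adjusted p = 0.021, edgeR). Irf5 and Irf7 bind to Myd88 complexes and drive cytokine and interferon genes. The NF-kB subunits Nfkb1 (0.33, adjusted p = 0.705, edgeR) and Rela (-0.23, adjusted p = 0.764, edgeR) were not called. Of 5 inhibitors 1 was called, Sigirr (2.70, adjusted p = 0.0259, edgeR), a receptor that dampens Toll signaling. Tnfaip3 (A20) was at 2.73 (adjusted p = 0.212, edgeR), Tollip at -0.92 (adjusted p = 0.237, edgeR) and Cyld at -0.55 (adjusted p = 0.37, edgeR).

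In edgeR no other TIR adaptor (0 of 5) and no kinase or ligase (0 of 14) was called. Pik3ap1 (BCAP) was at 3.94 (adjusted p = 0.169, edgeR), Ticam2 (TRAM) at 3.74 (adjusted p = 0.366, edgeR), Ticam1 at -0.55 (adjusted p = 0.827, edgeR) and Sarm1 at 0.29 (adjusted p = 0.836, edgeR) on the log2 scale. Among the kinases and ligases the smallest unadjusted p-values belonged to Chuk (-0.74, adjusted p = 0.12, edgeR), Traf6 (-0.85, adjusted p = 0.203, edgeR), Tab1 (-0.77, adjusted p = 0.238, edgeR) and Traf3 (0.82, adjusted p = 0.257, edgeR). Of the other receptors, Tlr5 (2.48, adjusted p = 0.438, edgeR) and Tlr12 (-0.10, adjusted p = 0.977, edgeR) were tested and Tlr8 and Tlr11 were below the filter. In double mutants 0 of the 41 were called against WT, with 7 higher and 3 lower at an unadjusted p below 0.05 (7.82% and 4.57% of all genes), and 0 were called against Cnp-Cre Jab1fl/fl, with 0 higher and 1 lower (1.75% and 3.25% of all genes). DESeq2 called 3 against WT, beside 663 higher and 199 lower of all 17716 genes. Against Cnp-Cre Jab1fl/fl it called 0, beside 20 higher and 67 lower of all genes. Without double-mutant replicate 3, 0 were called in either comparison with edgeR. At an unadjusted p below 0.05 there were then 4 higher and 1 lower against WT, beside 1079 and 603 of all 17716 genes. Against Cnp-Cre Jab1fl/fl there were 0 higher and 4 lower, beside 327 and 599 of all genes.

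**Figure D5:**
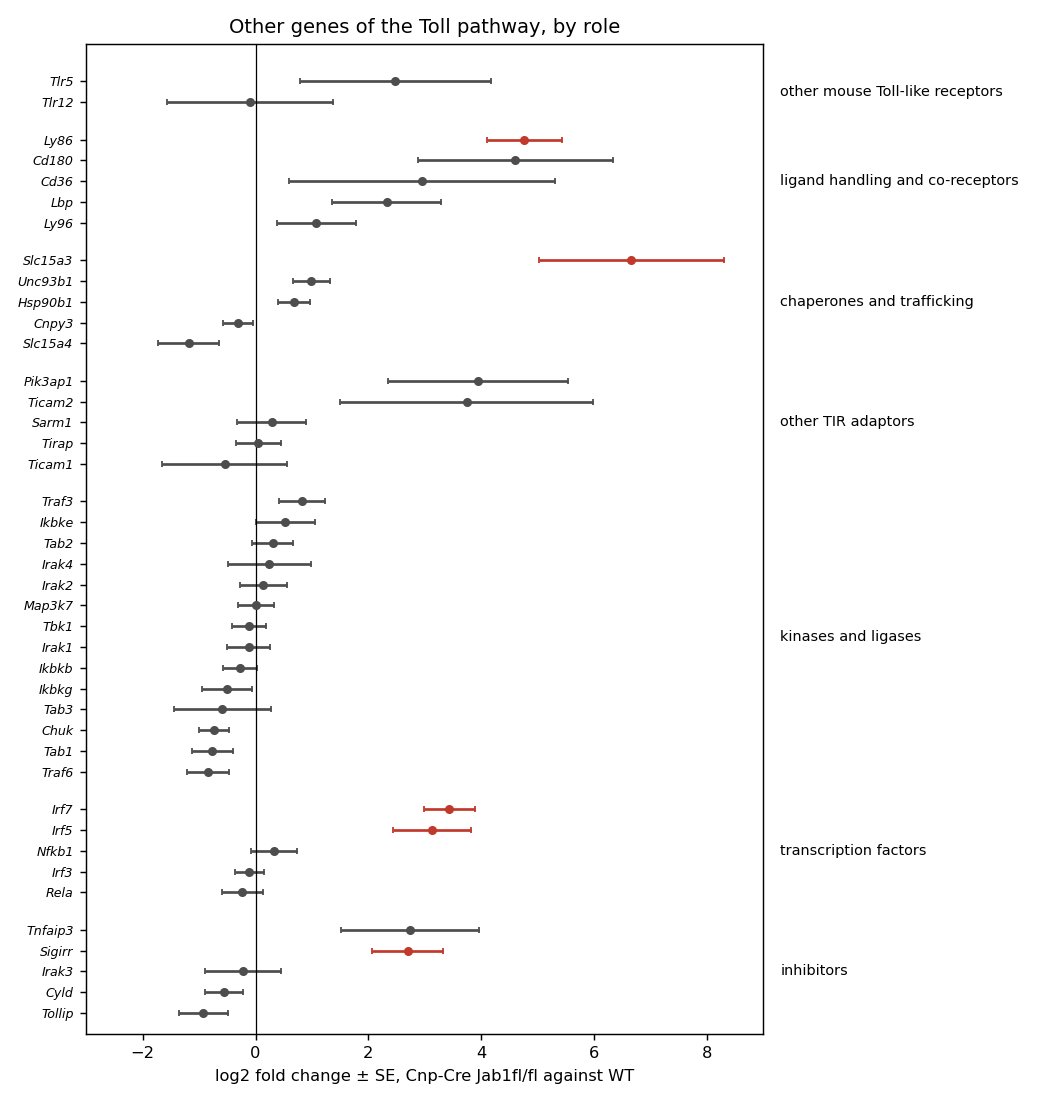
Points give log2 fold changes ± SE of the 41 other pathway genes tested in Cnp-Cre Jab1fl/fl against WT, grouped by role, with the 5 called at an adjusted p below 0.05 in red. The called genes are Ly86, Slc15a3, Irf7, Irf5 and Sigirr, and the 14 kinases and ligases lie around 0.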

How the data were processed

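RNA-Seq was measured in 12 samples, 4 per genotype, with groups and replicate numbers taken from the labels. The authors used Trimmomatic 0.32 for trimming and STAR 2.5.3a for alignment to GRCm38 and assigned reads to genes with featureCounts and the basic set of GENCODE. What the authors deposited are raw read counts for each symbol, not normalized. Strand and multimapping settings are not given in the sources used here. Positions and exon lengths were taken from GENCODE M21, and promoter windows from RefSeq.

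CPM values with TMM factors were computed here from the deposited counts. Genes that reached 1 CPM in 4 or more of the 12 samples were tested with edgeR 4.0.16 (quasi-likelihood, R 4.3.3) in fits of the 8 samples compared, with Benjamini-Hochberg adjustment over all 17716 genes and a threshold of 0.05. The alternatives were DESeq2 1.42.0, limma-voom with sample quality weights (limma 3.58.1), other normalizations and filters, a fit of all 12 samples, the replicate number as a block and each sample left out in turn. The block fit takes the genotype effect from same-numbered samples only. These are 2 pairs in Cnp-Cre Jab1fl/fl against WT and 3 pairs in each other comparison, and the samples without a partner add nothing to it. Counts of 3 or fewer were the floor of a library, and floors and intervals cover counting error only. The scripts were tested on simulated data. In chi-square tests all pairs of replicates differed beyond sampling noise (lowest ratio to the degrees of freedom 160), so each counted as 1 sample.

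All 10 members were named, and of the pathway list the 4 genes of each role with the smallest unadjusted p in Cnp-Cre Jab1fl/fl against WT. Members and lists were chosen with earlier results of these data known. Single-gene results of some marker genes are not reported here.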

Additional observations from a re-analysis of the deposited data

Results flagged for a closer look

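Among 28 groups of 4 samples (10 genes in 3 genotypes, less 2 in which every sample was at 0), 4 had a sample that stood apart from the other 3 by Dixon's test on the log2(CPM + 1) scale, where chance marks about 1 in 20 groups. The double-mutant replicate 3 was the high sample for Tlr4 at 11.9 CPM, where the others were at 0.457 CPM or below, and for Tlr13 at 23.6 CPM, where the others were at 0.853 CPM or below. In the same sample the 20 microglia markers summed to 19530 CPM, and their part in both values was not tested. The other 2 groups were of Tlr9, with 0.0824 CPM in Cnp-Cre Jab1fl/fl replicate 3 and 0.041 CPM in double-mutant replicate 5, each above 3 samples at 0. They rest on 6 and 4 counts, little above the floor of 3. With 3 samples tied at 0 the rule flags any read in the remaining sample, so the rate of 1 in 20 does not hold for such groups.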

How the results depend on the processing

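Leaving out each sample in turn gave 3 called members in every fit of Cnp-Cre Jab1fl/fl against WT and 0 in the other comparisons. Tlr1 was called under all 8 other settings of that comparison. Cd14 was lost with all 12 samples in 1 fit (adjusted p = 0.156, edgeR), and Tlr13 in limma-voom (adjusted p = 0.0516), with the replicate block (adjusted p = 0.166, edgeR) and with the filter on the 8 samples, where it was not tested. In double mutants against WT, DESeq2 called 2 members and 3 pathway genes, and the fit of all 12 samples called 1 member (Tlr13, adjusted p = 0.0374, edgeR) and 1 pathway gene. The 5 pathway calls of Cnp-Cre Jab1fl/fl against WT became 7 with DESeq2 and with limma-voom, 6 with the replicate block (Cd180, adjusted p = 0.019, and Pik3ap1, adjusted p = 0.0227, gained and Sigirr, adjusted p = 0.0732, lost, edgeR), 4 with no filter (Slc15a3 lost, adjusted p = 0.055, edgeR) and 3 with all 12 samples (Slc15a3, adjusted p = 0.0516, and Irf5, adjusted p = 0.0551, lost, edgeR). The block fit of Cnp-Cre Jab1fl/fl against WT rests on 2 pairs of same-numbered samples. The pathway calls ranged from 3 to 6 and from 0 to 2 in double mutants when samples were left out, the latter 2 without double-mutant replicate 1.

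Calls over all genes were 1354, 34 and 0 in Cnp-Cre Jab1fl/fl against WT, double mutants against WT and between mutants. With DESeq2 they were 2689, 862 and 87. With all 12 samples the double mutants had 164 calls against WT, and with no filter 903 and 21 calls against WT were made for Cnp-Cre Jab1fl/fl and double mutants. Limma-voom made 1921, 47 and 1 calls. With the replicate block they were 660, 1 and 0. Same-numbered samples did not deviate together (correlations from -0.19 to 0.08 over 8 pairs), so the numbers were not taken to pair them. Leaving out samples gave 678 (without WT replicate 5) to 1863 calls (without Cnp-Cre Jab1fl/fl replicate 2), 1 (without double-mutant replicate 2) to 274 calls (without double-mutant replicate 1) and 0 to 2 calls.

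Directions that turned belonged to changes that were not called. On the log2 scale, limma-voom gave 0.31 for Tlr6 and 0.84 for Tlr12 in Cnp-Cre Jab1fl/fl against WT, -1.99 for Tlr4 in double mutants against WT, and -0.10 for Tlr6, -0.47 for Tlr13, -0.11 for Myd88 and -1.15 for Cd14 between mutants. The replicate block gave 1.55 for Tlr6, -4.15 for Tlr4, and -0.05 for Tlr3, -0.25 for Myd88 and -1.20 for Cd14 in the same order of comparisons, and upper-quartile factors -0.02 for Tlr3 between mutants. With a sample left out, Cnp-Cre Jab1fl/fl against WT ran from -0.49 to 0.13 for Tlr3, -0.90 to 0.48 for Tlr6, -0.85 to 1.20 for Tlr12 and 0.00 to 0.57 for Sarm1. Double mutants against WT ran from -0.39 to 0.15 for Tlr3, -2.94 to 2.06 for Tlr4 and -0.68 to 0.74 for Tlr6. Between mutants the ranges were -2.81 to 0.33 for Tlr1, -1.13 to 1.99 for Tlr2, -0.11 to 0.35 for Tlr3, -0.56 to 1.07 for Tlr6, -1.89 to 2.41 for Tlr13, -0.34 to 0.31 for Myd88 and -1.34 to 2.06 for Cd14. The causes were not tested. Levels on plain library totals stayed within 1 SD for all members, and so did the 30 ratios to microglia markers without Sall1. With a sum over 18 of the 20 markers, 5 of the 30 ratios moved by more than 1 SD, all of them in WT and upward. Both sums were chosen after seeing the data.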
